A study of Homo sapiens with 2 samples.

Results

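Mature miRNAs known as markers of cell lineages other than epithelium were followed in A549, an established human lung adenocarcinoma line of epithelial origin. The rule for the 10 names is the lineage they are known to mark: hsa-miR-126-3p and hsa-miR-126-5p for endothelium, hsa-miR-143-3p, hsa-miR-145-5p, hsa-miR-199a-3p, hsa-miR-199a-5p and hsa-miR-214-3p for mesenchymal cells, and hsa-miR-142-3p, hsa-miR-142-5p and hsa-miR-223-3p for blood cells. Of these, 9 were among the 859 mature miRNAs in the table of raw counts, and hsa-miR-223-3p was not listed. Cells grown in DMEM with 10% serum spent 24 h at 20% oxygen (normoxia) or at 1.2% oxygen (hypoxia), and 1 small RNA library was sequenced for each state. The totals on mature miRNAs were 4514818 counts for normoxia and 8600160 for hypoxia, and levels are given as counts per 1000000 of these (CPM), where 1 count was worth 0.221 and 0.116 CPM. Intervals given after a value are exact Clopper-Pearson intervals at 95% for a level or a share, and exact conditional binomial intervals at 95% for a ratio. They cover counting error only, because reads amplified by PCR without molecular identifiers are not independent molecules and because no condition has a replicate.

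A miRNA hairpin gives a 5p and a 3p arm, either of which can be loaded on Argonaute and guide it to target mRNAs, mainly through the seed at bases 2 to 8. miR-126 lies in the endothelial gene EGFL7 and is known for maintaining vessel integrity. miR-143 and miR-145 come from a common locus and are abundant in smooth muscle and fibroblasts, while miR-199a and miR-214 share the transcript DNM3OS, active in mesenchymal tissues. miR-142 is a general miRNA of blood cells and miR-223 one of myeloid cells. In tissue profiles, such miRNAs are used to tell how much stroma, vessel or blood a sample holds. In RNA pooled from a culture, a low level in every cell and a high level in few cells cannot be told apart.

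The mature sequences are shown because they tell how far each name can be separated from other miRNAs in counting, and because each seed guides the pairing with mRNAs. They were taken from RefSeq (GRCh38.p14), where all 10 names matched, and are written 5′ to 3′ with the seed in capitals:
hsa-miR-126-3p: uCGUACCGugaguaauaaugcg
hsa-miR-126-5p: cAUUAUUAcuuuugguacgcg
hsa-miR-143-3p: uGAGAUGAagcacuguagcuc
hsa-miR-145-5p: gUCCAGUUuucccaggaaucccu
hsa-miR-199a-3p: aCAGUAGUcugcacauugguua
hsa-miR-199a-5p: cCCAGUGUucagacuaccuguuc
hsa-miR-214-3p: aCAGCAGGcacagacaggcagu
hsa-miR-142-3p: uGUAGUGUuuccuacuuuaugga
hsa-miR-142-5p: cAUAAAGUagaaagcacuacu
hsa-miR-223-3p: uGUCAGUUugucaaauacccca

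The 10 sequences are 21 to 23 bases long with a GC content of 33.3% to 59.1%, and they hold 10 distinct seeds. For miR-126-3p, miR-126-5p, miR-143-3p, miR-145-5p, miR-214-3p, miR-142-3p, miR-142-5p and miR-223-3p, no other listed mature miRNA had the same seed. Their nearest listed neighbour in sequence lay 7 to 9 edits away, counted as substitutions, insertions and deletions over the full length. miR-199a-3p is identical to miR-199b-3p, and miR-199a-5p differs from miR-199b-5p by 2 edits outside the seed.

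In GRCh38, the hairpin MIR126 lies on the plus strand of chromosome 9 from 136670602 to 136670686, within an intron of the protein-coding gene EGFL7. MIR143 (149428918 to 149429023) and MIR145 (149430646 to 149430733) lie on the plus strand of chromosome 5 with 1622 bases between them, the former in an exon and the latter in an intron of the lincRNA CARMN. MIR214 (172138798 to 172138907) and MIR199A2 (172144535 to 172144644) lie on the minus strand of chromosome 1, 5627 bases apart. Both overlap exons of the noncoding RNA DNM3OS, which runs antisense to an intron of DNM3. MIR199A1, which gives the same mature arms as MIR199A2, lies on the minus strand of chromosome 19 from 10817426 to 10817496, antisense to an intron of DNM2. MIR142 lies on the minus strand of chromosome 17 from 58331232 to 58331318 and MIR223 on the plus strand of chromosome X from 66018870 to 66018979, each overlapping an exon of a noncoding gene of the same strand.

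In both libraries the endothelial and mesenchymal names were counted between 12.8 and 189.5 CPM, whereas the blood cell names were at or below 1.11 CPM or not listed. The 10 names together received 2284 counts in normoxia and 4264 in hypoxia, or 506 CPM (interval 485 to 527) and 496 CPM (481 to 511). This was 0.0506% and 0.0496% of mature miRNA counts. miR-126-3p supplied 35.4% and 38.2% of these counts, and the 3 highest names together 75.3% and 78.4%. Against the most abundant miRNA of the line, miR-21-5p, which held 72.2% and 68.4% of mature miRNA counts, the highest of the 10 was lower by a factor of 4030 in normoxia and 3607 in hypoxia.

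miR-126-3p, the arm of the endothelial hairpin that is most often measured in vessels, had 809 counts in normoxia and 1630 in hypoxia. Its level was 179 CPM (167 to 192) and 189.5 CPM (180.4 to 199), the highest of the 10 in each library by the counts as listed, an order that the shared sequence of miR-199a-3p and miR-199b-3p, described with the paralogs, can change. It ranked 116 and 115 among the 859 listed mature miRNAs, above 86.5% and 86.6% of them. Its partner miR-126-5p had 192 and 270 counts, or 42.5 CPM (36.7 to 49.0) and 31.4 CPM (27.8 to 35.4), at ranks 210 and 232. The intervals of miR-126-5p in the libraries did not overlap, while those of miR-126-3p did. Such intervals did not overlap for 175 of the 339 mature miRNAs with a mean log2 CPM above 3 (51.6%), and 70 of these (20.6% of the 339) were lower in hypoxia like miR-126-5p, so that its difference was a common one.

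Among the mesenchymal names, miR-143-3p, an arm abundant in smooth muscle, had 470 counts in normoxia and 827 in hypoxia, or 104 CPM (94.9 to 114) and 96.2 CPM (89.7 to 103). miR-145-5p, from the neighbouring hairpin, had 111 and 190 counts, or 24.6 CPM (20.2 to 29.6) and 22.1 CPM (19.1 to 25.5). The pair of libraries gave overlapping intervals for each. miR-199a-3p had 441 and 888 counts, or 97.7 CPM (88.8 to 107) and 103 CPM (96.6 to 110). miR-199a-5p had 196 and 328 counts, or 43.4 CPM (37.5 to 49.9) and 38.1 CPM (34.1 to 42.5). miR-214-3p, the lowest of the mesenchymal names, had 58 and 123 counts, or 12.8 CPM (9.75 to 16.6) and 14.3 CPM (11.9 to 17.1). These intervals overlapped between the libraries as well.

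The blood cell names formed the bottom of the order. miR-142-3p had 5 counts in normoxia and 6 in hypoxia, or 1.11 CPM (0.360 to 2.58) and 0.698 CPM (0.256 to 1.52). miR-142-5p had 2 counts in each library, or 0.443 CPM (0.0536 to 1.60) and 0.233 CPM (0.0282 to 0.840). Neither arm of miR-223 was listed. The lowest sum of counts over the libraries among listed features was 3, and a feature below it would have had at most 2 counts in a library, worth 0.443 CPM in normoxia and 0.233 CPM in hypoxia.

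**Figure D1:**
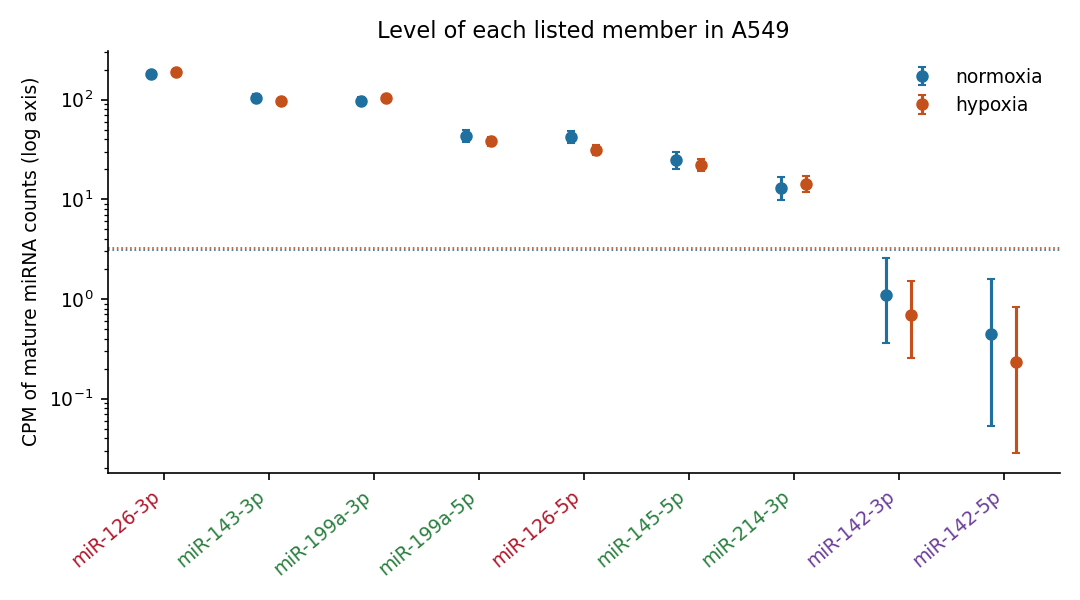
Level of the 9 listed names in each library, as CPM of mature miRNA counts on a log axis. Points are single libraries, bars are exact 95% counting intervals, dotted lines are the median of all 859 listed mature miRNAs in each library, and name colours mark endothelial (red), mesenchymal (green) and blood cell (purple) miRNAs. The 7 endothelial and mesenchymal names lie above the medians and both arms of miR-142 below them.

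The order of levels was close to the same in both libraries. In normoxia it ran from miR-126-3p through miR-143-3p, miR-199a-3p, miR-199a-5p, miR-126-5p, miR-145-5p, miR-214-3p and miR-142-3p to miR-142-5p. Within it, miR-143-3p and miR-199a-3p did not differ beyond counting error (ratio 1.07, interval 0.934 to 1.22), nor did miR-199a-5p and miR-126-5p (1.02, 0.832 to 1.25) or the arms of miR-142 (2.5, 0.409 to 26.3). In hypoxia miR-199a-3p stood above miR-143-3p, again within counting error (1.07, 0.976 to 1.18), and miR-199a-5p stood above miR-126-5p by a ratio of 1.21 (1.03 to 1.43). The widest gap in the order was that between miR-214-3p and miR-142-3p, with a ratio of 11.6 (4.70 to 37.1) in normoxia and 20.5 (9.15 to 56.9) in hypoxia.

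Set on the curve of all listed mature miRNAs, the names fell into a group above the median and a group below it. The median mature miRNA had 14 counts in normoxia and 28 in hypoxia, and the upper quartile was 167 and 327 counts. In normoxia 5 of the 9 listed names were above the upper quartile, 2 lay between it and the median, and 2 were below the median. In hypoxia these numbers were 4, 3 and 2, because miR-126-5p lay below the upper quartile there. miR-214-3p, at ranks 293 and 287, was the last name above the median, and miR-142-3p followed at ranks 539 and 599.

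**Figure D2:**
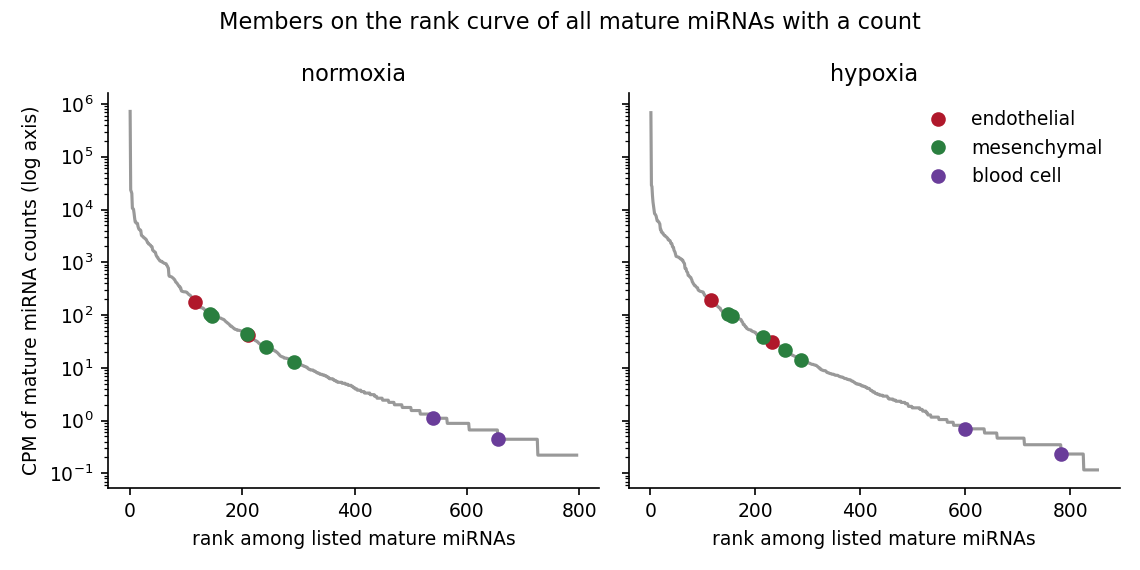
CPM of mature miRNA counts (log axis) against rank for all mature miRNAs with a count (grey line), with the endothelial, mesenchymal and blood cell names as points, in normoxia (left) and hypoxia (right). The names lie between rank 115 and rank 783, with miR-126-3p the highest and the arms of miR-142 at the low end in both panels.

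Arms were then compared within each hairpin, since an arm that is dominant in tissues need not be so in a given line. The 3p arm took most counts for miR-126, miR-143, miR-199a and miR-214, and the 5p arm for miR-145. For miR-143, 470 of 471 counts in normoxia and 827 of 831 in hypoxia fell on the 3p arm, a share of 99.8% (98.8% to 99.99%) and 99.5% (98.8% to 99.9%). For miR-145, the 5p arm took 92.5% (86.2% to 96.5%) of 120 counts and 90.0% (85.2% to 93.7%) of 211. For miR-214, the 3p arm took 89.2% (79.1% to 95.6%) of 65 counts and 86.6% (79.9% to 91.7%) of 142. Each of these hairpins kept its dominant arm in both libraries, with overlapping intervals.

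The 3p arm of miR-126 took 80.8% (78.2% to 83.2%) of 1001 counts in normoxia and 85.8% (84.1% to 87.3%) of 1900 in hypoxia. These intervals did not overlap, and the log2 ratio of 3p over 5p counts was higher by 0.52 in hypoxia. Among 123 other hairpin names with both arms counted and at least 100 counts in each library, this log2 ratio moved by at least as much in 59, with a median absolute change of 0.50. The minimum applies to both arms together. Some of these changes thus rest on few counts of the lesser arm, as for miR-143 with 1 and 4, so that the comparison is a rough one. The 3p arm of miR-199a took 69.2% (65.5% to 72.8%) of 637 counts and 73.0% (70.4% to 75.5%) of 1216. Over the 124 hairpin names of this kind, the dominant arm took a median of 96.2% of counts in normoxia, with quartiles at 86.0% and 99.4%. The normoxia shares of miR-126 and miR-199a therefore lay below the lower quartile. For miR-142, 5 of 7 counts and 6 of 8 were on the 3p arm, too few to rank the arms (71.4%, 29.04% to 96.3%, and 75%, 34.9% to 96.8%).

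**Figure D3:**
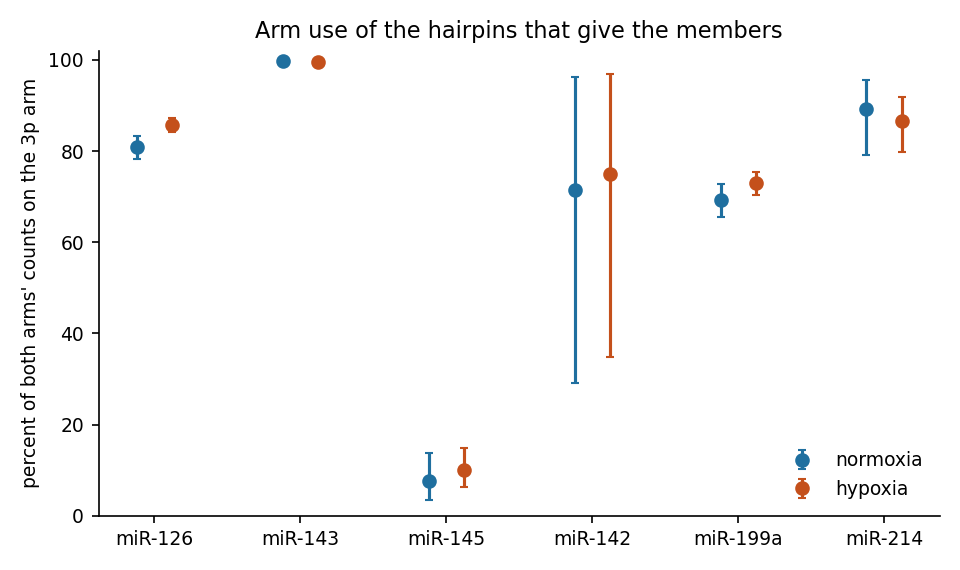
Percent of the counts of both arms that fell on the 3p arm, for the 6 hairpin names with listed arms. Points are single libraries and bars exact 95% counting intervals. miR-145 is the sole name with most counts on the 5p arm, and the interval of miR-142 spans from 29.04% to 96.8% over both libraries.

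Names that come from neighbouring hairpins kept similar proportions in the libraries. Per count of miR-145-5p there were 4.23 counts of miR-143-3p in normoxia (3.44 to 5.26) and 4.35 in hypoxia (3.71 to 5.12). Per count of miR-214-3p there were 3.38 counts of miR-199a-5p (2.51 to 4.61) and 2.67 (2.16 to 3.31). Ratios between different miRNAs also carry the unequal efficiency of ligation, which the counts do not measure. miR-199a has the further locus MIR199A1, so that its counts cannot be divided between chromosomes 1 and 19.

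The miR-199 counts carry an additional uncertainty. miR-199b-3p, whose mature sequence is that of miR-199a-3p, was given 446 counts in normoxia and 890 in hypoxia, a ratio to miR-199a-3p of 1.01 (0.885 to 1.16) and 1.00 (0.912 to 1.10). Reads of this sequence cannot be assigned to a locus, and the sources used here do not say whether the deposited counts hold the same reads under both names or a division of them. If they were divided, the sequence had 887 counts in normoxia and 1778 in hypoxia, or 196 CPM (184 to 209.8) and 207 CPM (197 to 217). It would then stand above miR-126-3p, by a ratio of 1.10 (0.996 to 1.21) in normoxia and 1.09 (1.02 to 1.17) in hypoxia. The share of the 3p arm over the a and b names would be 81.8% (79.3% to 84.0%) and 84.2% (82.6% to 85.7%). These sums were chosen after the values were seen. The 5p arms do differ, and there miR-199b-5p had 2 and 6 counts, against 196 and 328 for miR-199a-5p. miR-199a-5p thus took 99.0% and 98.2% of the counts with its seed.

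Epithelial miRNAs were taken as the comparison, both to check the label of the line and to set a scale. All 8 names of a list made up of the miR-200 family, which maintains the epithelial state, with miR-203, miR-205-5p and miR-375 were listed. They summed to 1181 CPM (1149 to 1213) in normoxia and 1376 CPM (1351 to 1401) in hypoxia. miR-200b-3p gave 3972 of the 5331 counts in normoxia and 9327 of 11833 in hypoxia, while miR-200c-3p was at 24.1 CPM (19.8 to 29.1) and 24.8 CPM (21.6 to 28.3) and miR-205-5p at 2.66 CPM (1.37 to 4.64) and 1.74 CPM (0.976 to 2.88). miR-126-3p lay above 7 of the 8 epithelial names in both libraries, all but miR-200b-3p. miR-203, miR-205-5p and miR-375, the last at 9.30 and 10.6 CPM, lay below miR-214-3p, the lowest of the mesenchymal names.

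By lineage, the endothelial names summed to 222 CPM (208 to 236) in normoxia and 221 CPM (211 to 231) in hypoxia. The mesenchymal names summed to 283 CPM (267 to 299) and 274 CPM (263 to 285), and the blood cell names to 1.55 CPM (0.623 to 3.19) and 0.930 CPM (0.402 to 1.83). Per epithelial count there were 0.188 endothelial counts (0.175 to 0.201) in normoxia and 0.161 (0.153 to 0.169) in hypoxia. The mesenchymal values were 0.239 (0.225 to 0.254) and 0.199 (0.190 to 0.208), and the blood cell values 0.00131 (0.000528 to 0.00271) and 0.000676 (0.000292 to 0.00133). For all 10 names the value was 0.428 (0.408 to 0.450) and 0.360 (0.348 to 0.373). With miR-200b-3p taken out of the epithelial list, the 10 names had 1.68 counts per epithelial count in normoxia (1.57 to 1.80) and 1.70 in hypoxia (1.62 to 1.79), so that the intervals overlapped. This comparison was chosen after the values were seen.

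**Figure D4:**
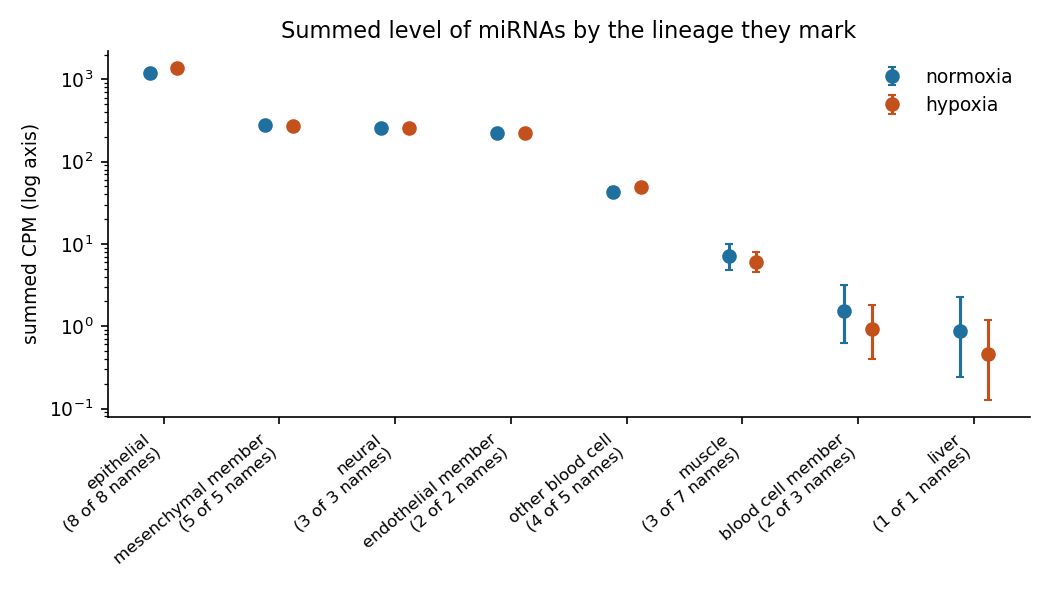
Summed CPM (log axis) of the names that mark each lineage, with the number of listed names under each. Points are single libraries and bars exact 95% counting intervals. The epithelial list is highest, the mesenchymal, neural and endothelial lists lie between 221 and 283 CPM, and the blood cell names studied here and the liver name are at or below 1.55 CPM. The list of other blood cell miRNAs stands higher, at 42.7 CPM in normoxia and 49.8 CPM in hypoxia, and the muscle list at 7.09 and 6.05 CPM.

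Hypoxia and normoxia were compared last, the contrast for which the libraries were made. With 1 library per condition there is no test, and calls rested on size alone. A call needed a mean log2 CPM above 3 and log2 CPM values, computed with a prior count of 2, that lay 0.9 or more apart. Of the 10 names, 7 passed the filter on level, and 0 of these 7 was called in either direction. Of all 339 mature miRNAs past the filter, 12 were higher (3.54%) and 11 lower (3.24%), so that a count of 0 among 7 is close to the background. With TMM scaling, which sets library sizes from the bulk of the miRNAs rather than from totals, log2 ratios without a prior count shifted in common by -0.11, the numbers over all miRNAs were 8 and 15, and that for the 7 names was 0.

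The log2 ratios of hypoxia over normoxia (counting intervals at CPM scaling, no prior) were small for the 7 names. miR-126-3p stood at 0.08 (-0.04 to 0.20), miR-199a-3p at 0.08 (-0.09 to 0.25) and miR-214-3p at 0.15 (-0.31 to 0.63), while miR-143-3p stood at -0.11 (-0.28 to 0.05), miR-145-5p at -0.15 (-0.50 to 0.20) and miR-199a-5p at -0.19 (-0.45 to 0.08). At this scaling the intervals of these 6 hold 0. The first 3 values are no larger than the common shifts between scalings, which reach -0.20, so that their sign depends on the scaling chosen. The upper bounds of miR-143-3p (0.05) and miR-199a-5p (0.08) are smaller in size than the common shift of -0.11 with TMM scaling. Under that shift both intervals would lie below 0. At CPM scaling miR-126-5p was the exception at -0.44 (-0.71 to -0.16), a fold of 0.738 (0.611 to 0.893), short of the size needed for a call. Of the 339 miRNAs, 214 had an interval that excludes 0 at CPM scaling (63.1%), 124 of them higher in hypoxia (36.6%) and 90 lower (26.5%), against 1 of the 7 names. These numbers can change with the scaling. The width of an interval also depends on the counts of the miRNA, so that they do not show the 7 names to be more stable than others. miR-142-3p and miR-142-5p stood at -0.67 (-2.64 to 1.38) and -0.93 (-4.72 to 2.86), so that no direction can be read at this depth.

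By the value with the prior count, the median over the 7 names was -0.11, with 4 below 0. Over the 339 miRNAs it was 0.08, with quartiles at -0.22 and 0.38 and 40.4% below 0. The 7 values ran from -0.43 to 0.15, against -3.28 to 1.48 for the 339. miR-210, a miRNA induced by hypoxia-inducible factors in many cell types, was the highest of the 339 at 1.48, with 954 CPM in normoxia and 2657 CPM in hypoxia. It exceeded miR-126-3p by a factor of 5.32 in normoxia and 14.0 in hypoxia. The sum of the 10 names moved by -0.03 on the log2 scale (-0.10 to 0.04).

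**Figure D5:**
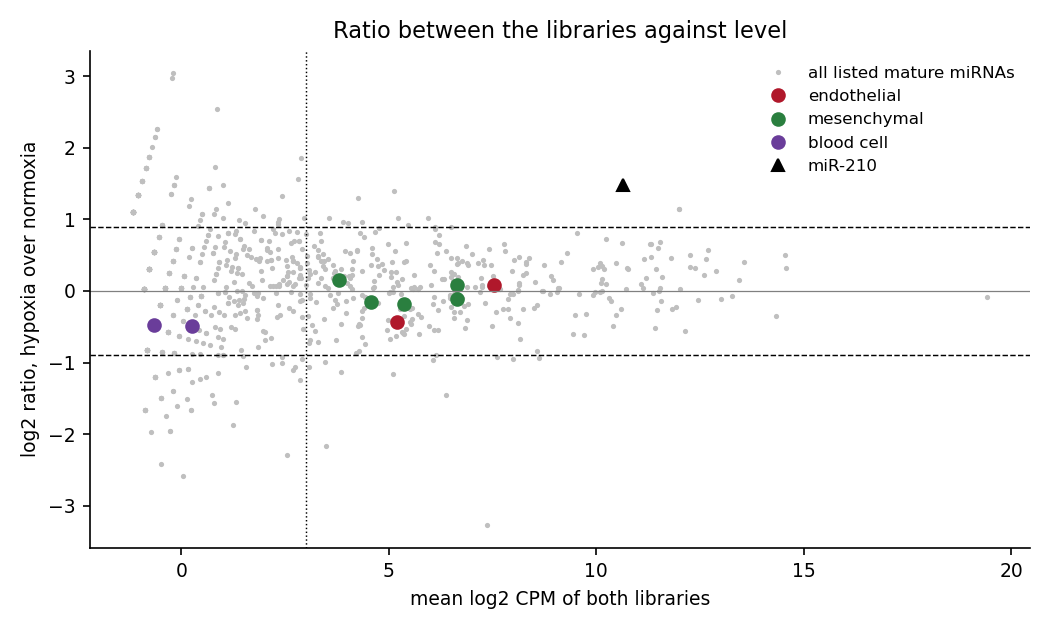
Log2 ratio of hypoxia over normoxia against mean log2 CPM (prior count of 2) for all 859 listed mature miRNAs (grey) and the names studied here (coloured by lineage). Dashed lines mark a log2 ratio of 0.9 in each direction and the dotted line a mean log2 CPM of 3. The coloured points lie between the dashed lines, and miR-210 (triangle) lies above them.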

How the data were processed

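Small RNA libraries of A549 cells, 1 per condition, were made by ligation for the SOLiD platform. The deposited table holds raw read counts for each small RNA, not normalized. For SOLiD data the methods name LifeScope with its small RNA pipeline and miRBase, without naming this series, and the submitters' processing notes name the build hg19. Deposited mature sequences carry 1 extra base on each side of the RefSeq sequence for 653 of the 687 names found in RefSeq.

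Libraries are named by their GEO labels. Members were matched by exact name, and counts were scaled to the totals on mature miRNAs. Other settings used TMM factors of edgeR version 4.0.16 and size factors of DESeq2 version 1.42.0 in R version 4.3.3. Intervals came from scipy version 1.17.1 in Python version 3.11.15, and the ratios and intervals were tested on simulated data. Host genes were read from GENCODE version 29. Named miRNAs are the members, their other arms and paralogs, lists of lineage markers, the most abundant miRNA, miR-210, miRNAs that share a seed with a member and those of the strand opposite MIR214. Members and lists were chosen with earlier results of these data known. Hairpin features were left out of the levels.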

Additional observations from a re-analysis of the deposited data

Results flagged for a closer look

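The table also counts whole hairpins apart from the mature arms, and these counts were not used for the levels above. The MIR126 hairpin had 2 counts in normoxia and 19 in hypoxia, and the MIR143 hairpin 0 and 10. The libraries held 6449337 counts in normoxia and 13115226 in hypoxia over all features, so that these raw counts are not on the same scale. There is no control library for them. Per 1000000 of all counts in each library, MIR126 stood at 0.310 (0.0376 to 1.12) in normoxia and 1.45 (0.872 to 2.26) in hypoxia, and MIR143 at 0 (0 to 0.572) and 0.762 (0.366 to 1.40). These intervals overlap between the libraries for both hairpins, but such overlap does not show that the levels were equal. No interval was computed for the ratio between the libraries, and a difference was not tested. Per count of their mature arms these were 0.200% and 1.00% for MIR126 and 0% and 1.2% for MIR143. Over 111 hairpins with at least 100 mature counts in each library, the median was 0.210% in normoxia (quartiles 0.0574% and 0.569%) and 0.235% in hypoxia (quartiles 0.0932% and 0.737%). Both hairpins lay above the upper quartile in hypoxia. Their values there rest on 19 and 10 hairpin counts and have no interval, so that counting error may account for this position. The MIR142 hairpin had 3 and 0 counts, and the hairpins of miR-145, miR-199a, miR-214 and miR-223 were not listed. The cause of these values was not tested.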

How the results depend on the processing

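No paired analysis was possible because normoxia and hypoxia have 1 library each, which also leaves no library to omit. With all counts in the table as the denominator, the summed CPM in normoxia and hypoxia was 354 and 325 for the 10 names, 155 and 145 for the endothelial, 198 and 179.6 for the mesenchymal, 827 and 902 for the epithelial, 178 and 169.7 for the neural and 29.9 and 32.6 for the other blood cell list, and 3.96 for the muscle list in hypoxia. Without miR-21-5p in the denominator the 10 names stood at 1820.3 and 1567 CPM, and without miR-199a at 365 and 354 CPM, all by construction. Without miR-200b-3p there were 1.68 and 1.70 counts of the 10 names per epithelial count.

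The log2 ratio of the sum moved to -0.14 with TMM scaling, -0.22 with totals omitting the 10 most abundant miRNAs and -0.12 with all counts as library size, since these scalings shift log2 ratios without a prior count in common by -0.11, -0.20 and -0.09. By this common shift, miR-126-3p and miR-199a-3p had the other sign in 3 of 6 settings each and miR-214-3p in 1, and miR-126-5p ran from -0.63 to -0.44. The values of miR-126-3p, miR-143-3p and miR-199a-3p fell outside their counting intervals at CPM scaling in 1 setting each. As each other scaling tried moved log2 ratios down, a value below 0 that stayed so is no sign of stability. None of the 10 names was called in any setting tried. Over all miRNAs, 5 were higher and 18 lower without the 10 most abundant, 113 and 64 with no filter on low counts, where 859 in place of 339 were considered, and 8 and 6 at a log2 threshold of 1. Depth limits miR-142, with 2 to 6 counts per arm and library.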

Other observations

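Marker miRNAs of further lineages were also counted. The blood cell miRNAs outside the 10 names summed to 42.7 CPM in normoxia and 49.8 CPM in hypoxia. Among them, the erythroid miR-451a had 82 counts in normoxia and 191 in hypoxia (18.2 CPM, 14.4 to 22.5, and 22.2 CPM, 19.2 to 25.6). miR-486-5p, abundant in red cells and muscle, had 107 and 225 counts (23.7 CPM, 19.4 to 28.6, and 26.2 CPM, 22.9 to 29.8). miR-451a thus had 16.4 counts per count of miR-142-3p in normoxia (6.75 to 51.8) and 31.8 in hypoxia (14.4 to 87.8). The lymphoid miR-150-5p had 1 and 2 counts and miR-144-5p, from the hairpin next to miR-451a, 3 and 10, while miR-144-3p was not listed. The source of these counts was not tested.

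The neural names summed to 254 CPM in normoxia and 259 CPM in hypoxia. Among them, both arms of miR-9 were counted, at 232 and 451 counts for miR-9-5p and 913 and 1769 for miR-9-3p. miR-9-3p slightly exceeded miR-126-3p, by a ratio of 1.13 (1.03 to 1.24) in normoxia and 1.09 (1.01 to 1.16) in hypoxia, whereas the neuronal miR-124-3p had 3 and 6 counts. The hepatocyte miR-122-5p had 4 counts in each library. Of 7 muscle names 3 were listed, with a sum of 7.09 and 6.05 CPM. miR-133a had 0 counts in normoxia and 18 in hypoxia, and the related miR-133b had 0 and 3. With normoxia set to 3 counts, miR-133a was 3.15-fold higher in CPM in hypoxia. The exact interval of its ratio had a lower bound of 2.31. miR-499a-5p had 32 and 31 counts, or 7.09 and 3.60 CPM, a fold of 0.509 (0.300 to 0.861) in hypoxia. miR-133a and miR-499a-5p both lay below the mean log2 CPM of 3 needed for a call, and with no such filter 113 of the 859 mature miRNAs were higher and 64 lower by size.

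The miRNAs of the opposite strand of MIR214, miR-3120-3p and miR-3120-5p, had 0 and 4 counts and 0 and 3 counts in normoxia and hypoxia, against 58 and 123 for miR-214-3p.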
